A study of Mus musculus with 40 samples.

Results

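Bone marrow-derived macrophages (BMDMs) of WT mice were compared between 9 and 6 hr of LPS over all expressed genes, to describe how the transcriptome moved as the response passed into its late phase. Of the 27179 genes in the deposited table, 13015 averaged log2(5) rlog or more over the 8 libraries concerned and were tested. The study sequenced BMDMs of 4 WT and 4 *Cpeb4*-/- male mice at 0, 1, 3, 6 and 9 hr of LPS, 40 libraries in all. The 8 libraries described here came from WT mice 25, 69, 87 and 88, each of which gave 1 library at 6 hr and 1 at 9 hr. The mice were adult males of a mixed C57BL/6J and 129 background. Their marrow cells were grown for 7 days with L-cell conditioned medium as the source of M-CSF, and then received 10 ng/ml of E. coli LPS. Mice 25 and 88 belonged to batch 1 and mice 69 and 87 to batch 2, so that batch, cage and mouse were shared by both times of a pair. Values are rlog, a log2 scale corrected for library size and shrunken toward the mean of each gene, so that a difference of 1 is a change of 2-fold or more in the counts behind it. Throughout, values are listed in the order of mice 25, 69, 87 and 88.

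LPS is sensed by TLR4, which through MyD88 and TRIF activates NF-kB, MAP kinases and IRF3 and so induces cytokines, chemokines and interferon beta. Interferon then acts back on the macrophage through JAK and STAT proteins and induces antiviral genes. The response is wound down by inhibitors that are themselves induced by LPS, among them A20 (*Tnfaip3*), the SOCS proteins, the dual-specificity phosphatases and tristetraprolin (TTP, *Zfp36*), which promotes decay of mRNAs with AU-rich elements (AREs) in the 3′UTR. Late in the response macrophages can also take up functions in clearance and repair.

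The libraries separated by time. The principal component with most variance held 73.1% of it and put the 4 libraries at 6 hr on the opposite side from the 4 at 9 hr, while the next held 7.36%. Across the genes tested, Pearson's r was 0.997 to 0.998 between libraries of the same time and 0.984 to 0.989 between libraries of different times. All 12 macrophage markers examined passed the filter, among them *Csf1r*, *Adgre1* and *Lyz2*, whereas 19 of 71 markers of 9 other cell types did. *Cd3d*, *Cd3e*, *Ms4a1*, *Ncr1*, *Ly6g* and *Elane* stayed below the filter, and *Hba-a1* and *Hbb-bs* were listed at 0. Other markers of the same cell types passed. These were *Cd4*, *Lck* and *Cd247* of T cells, *Cd79b* and *Blnk* of B cells, and *S100a8*, *S100a9*, *Ngp* and *Camp* of neutrophils. The erythroid marker *Alas2* passed as well. *Blnk* was the highest, at 11.25 to 11.51 at 6 hr. Of the 19 that passed, 9 fell and 2 rose. Summed on the linear scale, the macrophage list ran from 748284 to 792087 at 6 hr and from 716172 to 746148 at 9 hr. The T cell list, with *Lck* at −1.44 ± 0.080, ran from 412 to 508 and from 238 to 265, and the endothelial list from 2040 to 2532 and from 1242 to 1490. *Lck* was the highest T cell marker (7.80 to 8.32 at 6 hr) and *Kdr* the highest endothelial marker (10.51 to 10.99). These sums therefore say little of the other members, of which *Cd3g*, *Tek*, *Emcn* and *Cldn5* also stayed below the filter. The part of such genes in the results was not tested. In bulk samples, fewer cells of a type and less RNA per cell cannot be told apart. *Cpeb4*, the targeted gene, spanned 10.09 to 10.67 in WT and 8.74 to 9.66 in *Cpeb4*-/- libraries at 6 hr, and the genotypes overlapped at the other times, including 9 hr (8.89 to 9.41 against 7.87 to 9.27). Gene-level values hold reads from any part of the transcript, so they are only a partial check of the knockout labels.

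Between 6 and 9 hr, 8619 of 13015 genes (66.2%) changed, 3913 upward (30.1%) and 4706 downward (36.2%), by limma with an adjusted p under 0.05. Most changes were small, with a median size of 0.36 among called genes and a median SE of 0.050. Over all genes tested the median difference was −0.027, and the interquartile range ran from −0.27 to 0.21. The large changes were mostly falls, since 378 genes (2.9%) fell by at least 1 and 171 (1.31%) rose by at least 1. In 8266 of the called genes the difference had the same sign in all 4 mice, and in 6757 the 4 values at 9 hr did not overlap the 4 at 6 hr. These genes were called from the same libraries, and the shares over all 13015 genes are not given. The counts are therefore a description and no separate support for the calls. Within batch 1 all 8619 called genes kept their sign, and within batch 2 8618 did. The mice of each batch are part of the 4 pairs behind the calls, so the calling itself favours such agreement. The balance of rises and falls depended on the scaling: 45.4% of called genes were higher with the deposited values, 37.6% after median centring and 54.4% after quantile normalization.

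The 15 largest falls included genes of cytokines, of other ligands and of a ligand-binding protein. *Il6* (chr5:30013114-30019975, mm10), which encodes the acute-phase cytokine IL-6, read 12.16, 12.60, 12.44 and 12.65 at 6 hr and 9.75, 10.24, 9.86 and 9.60 at 9 hr. Every 9 hr value lay below every 6 hr value, and *Il6* fell by 2.60 ± 0.078 (SE, n = 4 mice, 6.06-fold lower, limma adjusted p = 1.6e-12). Its means over 0, 1, 3, 6 and 9 hr were 7.73, 9.71, 12.32, 12.46 and 9.86. *Fst*, which encodes the activin-binding protein follistatin, fell by 2.48 ± 0.11 (SE, n = 4 mice, 5.59-fold lower, limma adjusted p = 6.0e-11). *Tnfsf15*, a ligand of the TNF family, fell by 2.24 ± 0.066 (SE, n = 4 mice, 4.74-fold lower, limma adjusted p = 1.4e-12). *Tnfsf4*, the ligand of the costimulatory receptor OX40, changed by −2.13 ± 0.059, the IL-10 family cytokine gene *Il19* by −2.15 ± 0.11 and the Notch ligand gene *Dll1* by −2.05 ± 0.099. *Il12b*, which encodes the p40 subunit shared by IL-12 and IL-23, read 11.40, 11.54, 11.52 and 11.58 at 6 hr and 9.38, 9.63, 9.33 and 9.20 at 9 hr. It fell by 2.12 ± 0.058 (SE, n = 4 mice, 4.35-fold lower, limma adjusted p = 8.6e-13), again without overlap. The anti-inflammatory cytokine gene *Il10* (chr1:131019845-131024970) read 11.08, 11.37, 11.21 and 11.30 at 6 hr and 9.15, 9.40, 9.13 and 8.92 at 9 hr and fell by 2.09 ± 0.059 (SE, n = 4 mice, 4.25-fold lower, limma adjusted p = 1.1e-12), after means of 8.90, 11.36, 11.62, 11.24 and 9.15 over the 5 times. The fall of *Il10* was close in size to that of *Il12b*.

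The other genes of the 15 were of mixed function. *Ptgs2* (chr1:150100031-150108234), which encodes the inducible prostaglandin synthase COX-2, read 15.44, 15.73, 15.50 and 15.66 at 6 hr and 13.29, 13.85, 13.12 and 13.24 at 9 hr. It fell by 2.21 ± 0.065 (SE, n = 4 mice, 4.63-fold lower, limma adjusted p = 1.4e-12). The metalloreductase gene *Steap4* changed by −2.21 ± 0.056, the aggrecanase gene *Adamts4* by −2.15 ± 0.078 and *Akap2*, whose product anchors protein kinase A, by −2.30 ± 0.069. The transcription factor gene *Klf8* changed by −2.11 ± 0.076, *Unc80*, which encodes a subunit of a sodium leak channel, by −2.09 ± 0.15, and *Sectm1a*, which encodes a small membrane and secreted protein, by −2.15 ± 0.20. No predicted gene model fell as far as these 15.

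Several of the 15 largest rises were in regulators of signalling. *Smad6* (chr9:63953076-64022085), an inhibitor of BMP signalling, read 4.72, 4.84, 4.76 and 4.61 at 6 hr and 6.78, 6.57, 6.94 and 6.88 at 9 hr. It rose by 2.06 ± 0.11 (SE, n = 4 mice, 4.17-fold higher, limma adjusted p = 2.6e-10), and its means over the 5 times were 5.22, 6.20, 5.31, 4.73 and 6.79. *Smad3*, a transducer of TGF-beta signals, rose by 1.55 ± 0.088 (SE, n = 4 mice, 2.93-fold higher, limma adjusted p = 8.1e-10). *Inpp5d*, which encodes the lipid phosphatase SHIP1 that opposes PI3-kinase, read 11.03, 10.90, 10.89 and 10.69 at 6 hr and 12.39, 12.34, 12.47 and 12.43 at 9 hr and rose by 1.53 ± 0.049 (SE, n = 4 mice, 2.89-fold higher, limma adjusted p = 2.5e-12). Its means of 12.40, 12.46, 11.34, 10.88 and 12.41 show a dip that had closed at 9 hr. *Arrb1*, which encodes the receptor adaptor beta-arrestin 1, changed by 1.57 ± 0.051, and *Cnr2*, the cannabinoid receptor of immune cells, by 1.66 ± 0.16.

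The other rises were of several kinds. *Egln3* (chr12:54178981-54203874) encodes a prolyl hydroxylase that marks HIF subunits for destruction. Its values were 5.12, 4.93, 4.84 and 4.74 at 6 hr and 6.31, 6.61, 6.61 and 7.22 at 9 hr, a rise of 1.78 ± 0.15 (SE, n = 4 mice, limma adjusted p = 8.5e-08), and its means over the 5 times were 5.01, 5.40, 4.89, 4.91 and 6.69. *Scd2*, a desaturase of fatty acids, rose by 1.64 ± 0.064 and *Tmem86a*, an enzyme of plasmalogen breakdown, by 1.87 ± 0.061. The ETS factor gene *Elk3* rose by 1.58 ± 0.040, the TEAD cofactor gene *Vgll4* by 1.57 ± 0.13, the actin regulator gene *Abi3* by 1.65 ± 0.053, the kinesin gene *Kif21b* by 1.53 ± 0.070 and *Nbeal2*, needed for granules of platelets and other blood cells, by 1.72 ± 0.072. *Fam78a* rose by 1.56 ± 0.068 and the receptor gene *Trem3* by 1.52 ± 0.17. In *Trem3* mouse 25 rose by 0.67 and the other 3 by 1.76 to 1.82. In addition, 2 predicted gene models rose as far as these 15 genes.

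**Figure D1:**
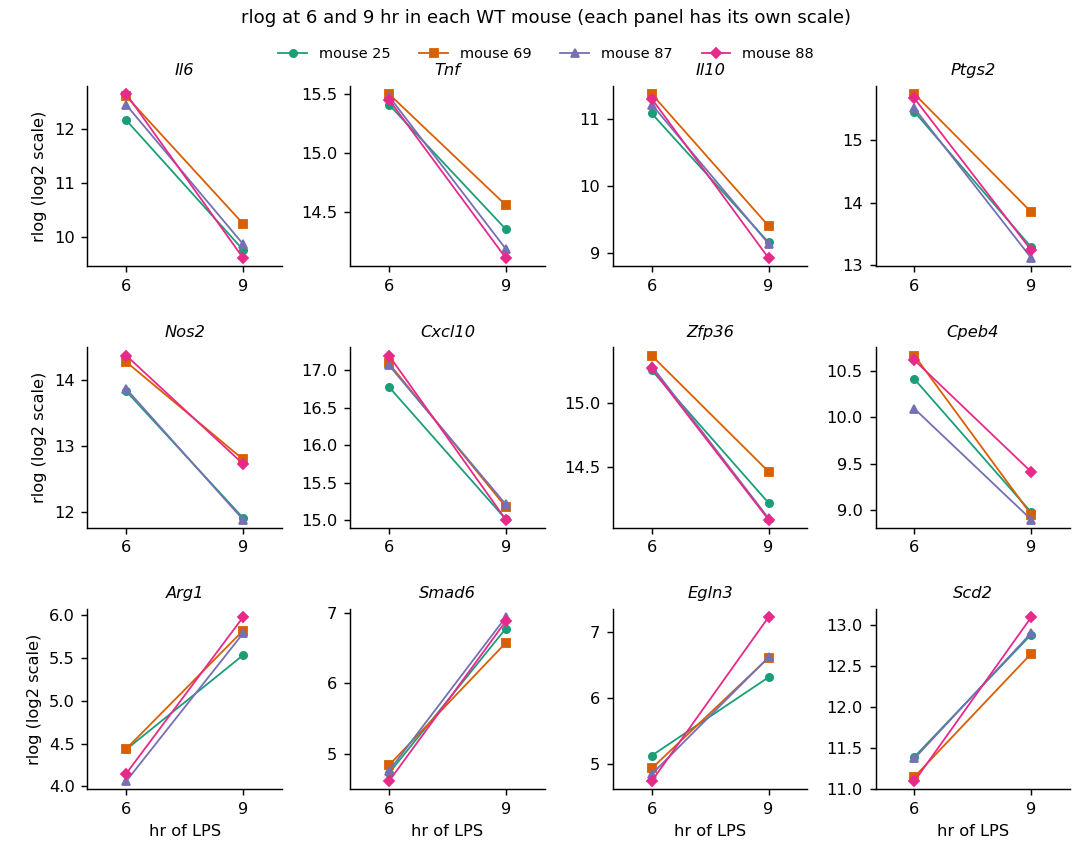
rlog values (log2 scale, separate axis in each panel) at 6 and 9 hr for 12 genes, with 1 line for each WT mouse. *Il6*, *Tnf*, *Il10*, *Ptgs2*, *Nos2*, *Cxcl10*, *Zfp36* and *Cpeb4* fell in all 4 mice, and *Arg1*, *Smad6*, *Egln3* and *Scd2* rose in all 4.

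The genes were next placed by their earlier response. At 3 hr against 0 hr, 9.43% of the genes tested in that contrast were higher by at least 1 with a limma adjusted p under 0.05, and 7.37% were lower by at least 1. These libraries are other than those at 6 and 9 hr, though they came from the same mice. Of the 1216 induced genes, 1051 (86.4%) fell from 6 to 9 hr and 52 (4.28%) rose, with a median difference of −0.66, against 36.2%, 30.1% and −0.027 over all genes tested. The class median was −0.63, −0.64, −0.65 and −0.73 in the 4 mice. Of the 915 repressed genes, 688 (75.2%) rose and 31 (3.39%) fell, with a median of 0.54, and the mice gave 0.52, 0.51, 0.55 and 0.59. The 3439 genes that were flat from 0 to 3 hr, with a difference under 0.2 in size and an adjusted p over 0.05, had a median of −0.031, and 735 of them rose and 1038 fell. Induced genes supplied 269 of the 378 falls of at least 1, and repressed genes 118 of the 171 rises of at least 1. Of the 15 largest falls 14 were induced genes, and of the 15 largest rises 10 were repressed genes. The return was partial at 9 hr. Above their own 0 hr level, the induced genes stood at a median of 1.63 at 3 hr, which the class limit sets in part, 1.93 at 6 hr and 1.23 at 9 hr. The repressed genes stood at −1.31, −1.43 and −0.82.

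**Figure D2:**
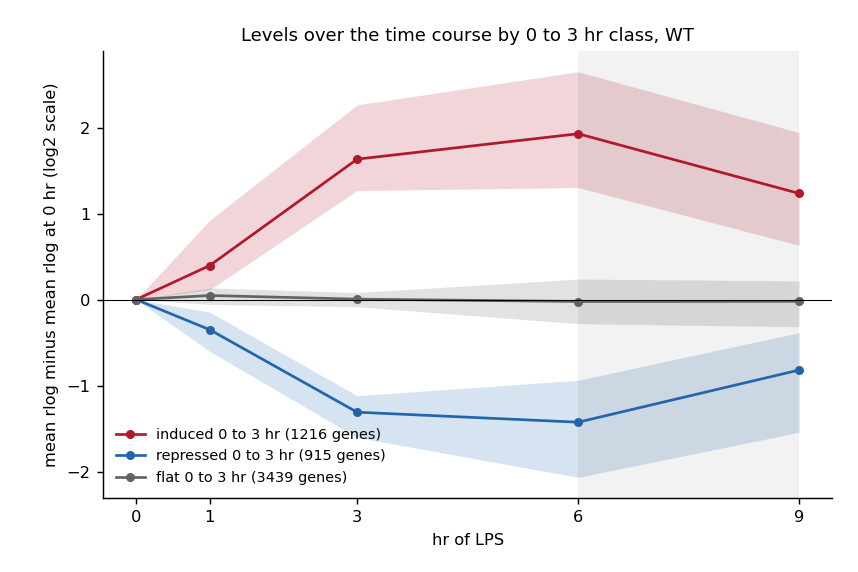
Mean rlog of each gene minus its mean at 0 hr (log2 scale) against hr of LPS in WT, as the median (line) and interquartile range (band) of genes induced, repressed or flat from 0 to 3 hr. From 6 to 9 hr, shaded, the median of the induced genes went from 1.93 to 1.23 and that of the repressed genes from −1.43 to −0.82.

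Some genes went against their class. Among the 52 induced genes that kept rising, those with the largest differences (picked after their values were seen) were *Slpi*, an inhibitor of leukocyte proteases, at 1.43 ± 0.10, *Tmem119* at 1.25 ± 0.12, *Dnmt3l* at 1.12 ± 0.10 and *Hp*, which encodes the haemoglobin-binding protein haptoglobin, at 1.09 ± 0.045. The means of *Hp* over the 5 times were 6.48, 6.71, 7.50, 11.03 and 12.13, so that the step from 3 to 6 hr was larger than that from 6 to 9 hr. The receptor genes *Trem1* and *Marco* followed at 0.92 ± 0.12 and 0.87 ± 0.041. Among the 31 repressed genes that fell further, *Cytip*, which encodes a regulator of cell adhesion, changed by −1.13 ± 0.079 and *Bmp2* by −0.74 ± 0.14. Genes that had been flat from 0 to 3 hr also moved late. *Arg1*, the arginase that competes with nitric oxide synthase for arginine, read 4.43, 4.44, 4.06 and 4.15 at 6 hr and 5.53, 5.82, 5.79 and 5.98 at 9 hr and rose by 1.51 ± 0.13 (SE, n = 4 mice, 2.85-fold higher, limma adjusted p = 9.7e-08). *Prss46*, a serine protease gene, rose by 1.20 ± 0.13. *Cpeb3* changed by −1.53 ± 0.056, *Fhod3* by −1.66 ± 0.10, *Angpt1*, a ligand of the receptor TIE2, by −1.57 ± 0.11, *Asap3* by −1.55 ± 0.15 and the growth factor gene *Pdgfc* by −1.41 ± 0.11. *Angpt1* had means of 3.18, 3.01, 3.08, 6.26 and 4.69, with its highest mean at 6 hr.

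Of the genes for ligands, most fell, against 36.2% of all genes tested. Of the 21 tested genes for pro-inflammatory cytokines, 19 fell and 0 rose, 12 of them by at least 1 (median −1.09). *Tnf* (chr17:35199367-35202007) read 15.41, 15.50, 15.48 and 15.45 at 6 hr and 14.35, 14.56, 14.19 and 14.11 at 9 hr. It fell by 1.16 ± 0.054 (SE, n = 4 mice, 2.24-fold lower, limma adjusted p = 9.5e-11), and its means over the 5 times were 12.48, 16.84, 15.87, 15.46 and 14.30. *Il1a* changed by −1.06 ± 0.036, *Il1b* by −0.74 ± 0.054, *Csf3*, the gene of the granulocyte factor G-CSF, by −1.30 ± 0.070 and *Il27* by −1.94 ± 0.076. *Csf2*, which encodes GM-CSF, did not pass the test (0.02 ± 0.13, adjusted p = 0.91), and its means over the 5 times were 3.54, 9.35, 6.41, 4.70 and 4.72. *Il1rn*, the gene of the IL-1 receptor antagonist, changed by −0.21 ± 0.042 with the deposited values and by 0.081 after quantile normalization.

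Of 12 CC chemokine genes, all 12 fell (median −0.79), with *Ccl3* at −1.85 ± 0.064, *Ccl12* at −1.66 ± 0.070, *Ccl4* at −1.59 ± 0.061 and *Ccl2*, which attracts monocytes, at −0.82 ± 0.040. Under quantile normalization 9 of them fell and 2 rose, including *Ccl5* (−0.14 with the deposited values and 0.18). Of 11 CXC chemokine genes 10 fell (median −0.91). *Cxcl10* (chr5:92346638-92348889), a ligand of CXCR3 on T cells, read 16.78, 17.09, 17.06 and 17.19 at 6 hr and 15.01, 15.18, 15.21 and 15.01 at 9 hr. It fell by 1.93 ± 0.055 (SE, n = 4 mice, 3.8-fold lower, limma adjusted p = 1.1e-12). The neutrophil attractants *Cxcl2* and *Cxcl1* changed by −1.25 ± 0.066 and −0.91 ± 0.072. Both had peaked early, with *Cxcl1* at means of 8.94, 14.39, 13.06, 10.64 and 9.73.

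The inhibitors of the response fell along with its ligands. Of 22 factors of mRNA decay and NF-kB feedback, 19 fell and 2 rose (median −0.66, or −0.41 under quantile normalization). *Zfp36* (chr7:28376784-28379228), the gene of TTP, read 15.26, 15.38, 15.29 and 15.27 at 6 hr and 14.22, 14.46, 14.10 and 14.09 at 9 hr. It fell by 1.08 ± 0.044 (SE, n = 4 mice, 2.12-fold lower, limma adjusted p = 2.4e-11). *Tnfaip3* changed by −1.32 ± 0.047, *Nfkbiz*, an atypical IkB protein, by −1.52 ± 0.039, *Tnip3* by −1.21 ± 0.050 and *Nfkbia*, which encodes IkB alpha, by −0.71 ± 0.050. The exceptions were *Zfp36l2*, a relative of TTP, which rose by 0.92 ± 0.064, and *Tnfaip8l2*, at 0.16 ± 0.038. Of 23 feedback inhibitors of MAP kinase and cytokine signalling 14 fell and 4 rose (median −0.34). *Dusp1*, the phosphatase that switches off p38 and JNK, read 13.31, 13.56, 13.35 and 13.40 at 6 hr and 12.08, 12.52, 12.07 and 12.23 at 9 hr and fell by 1.18 ± 0.038 (SE, n = 4 mice, 2.27-fold lower, limma adjusted p = 2.6e-12). *Dusp2* changed by −1.69 ± 0.056, *Cish* by −1.27 ± 0.085, *Socs1* by −1.03 ± 0.058 and *Socs3* by −0.75 ± 0.034. *Dusp6*, which acts on ERK, went the other way at 0.99 ± 0.050, as did *Spred2* at 0.89 ± 0.085 and *Trib3* at 0.90 ± 0.088.

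Among transcription factors, all 5 NF-kB subunit genes fell, with *Rel* at −1.41 ± 0.045, *Nfkb1* at −0.90 ± 0.032 and *Nfkb2* at −0.48 ± 0.040. Under quantile normalization 3 of the 5 did, and the median went from −0.48 to −0.19. Of 27 immediate early factors, 20 fell and 4 rose (median −0.50). *Myc* changed by −1.01 ± 0.047, *Nr4a3* by −0.98 ± 0.19, *Fosl2* by −0.94 ± 0.049, *Egr1* by −0.82 ± 0.085 and *Atf3*, a repressor of cytokine genes, by −0.42 ± 0.032. *Fos* did not pass the test at −0.09 ± 0.039. The risers were *Klf10* (0.76 ± 0.061), *Fosl1*, *Klf2* and *Ier5*.

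Most genes of the interferon arm fell. Of 33 antiviral genes, 31 fell and 1, *Bst2*, rose (median −0.64), and under quantile normalization 27 fell and 3 rose (median −0.36). *Cmpk2* changed by −1.80 ± 0.037, *Rsad2*, which encodes viperin, by −1.53 ± 0.042 and the RNA sensor gene *Ifih1* by −1.47 ± 0.036. *Ifit1* read 15.67, 15.77, 15.71 and 16.02 at 6 hr and 14.60, 14.67, 14.68 and 14.73 at 9 hr and fell by 1.13 ± 0.042 (SE, n = 4 mice, 2.18-fold lower, limma adjusted p = 9.3e-12), whereas *Isg15*, a ubiquitin-like modifier, changed by −0.42 ± 0.043. All 15 tested genes of the GBP and IRG GTPases, which attack vacuoles of microbes, fell (median −0.98), led by *Iigp1* at −1.71 ± 0.050, *Tgtp1* at −1.48 ± 0.15 and *Gbp5* at −1.28 ± 0.037. *Tgtp1* and *Tgtp2* are near-identical copies whose reads may be split. Of 20 interferon genes and response factors 14 fell and 2 rose (median −0.40, or −0.25 with 11 falls and 6 rises under quantile normalization), with *Batf2* at −1.01 ± 0.047, *Stat3* at −0.92 ± 0.030 and *Jak2* at −0.83 ± 0.031. *Ifnb1*, the gene of interferon beta, read 5.11, 5.08, 5.78 and 5.59 at 6 hr and 4.77, 5.35, 5.15 and 5.10 at 9 hr, did not pass the test (−0.30 ± 0.14, adjusted p = 0.070) and had its highest mean, 8.34, at 1 hr.

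**Figure D3:**
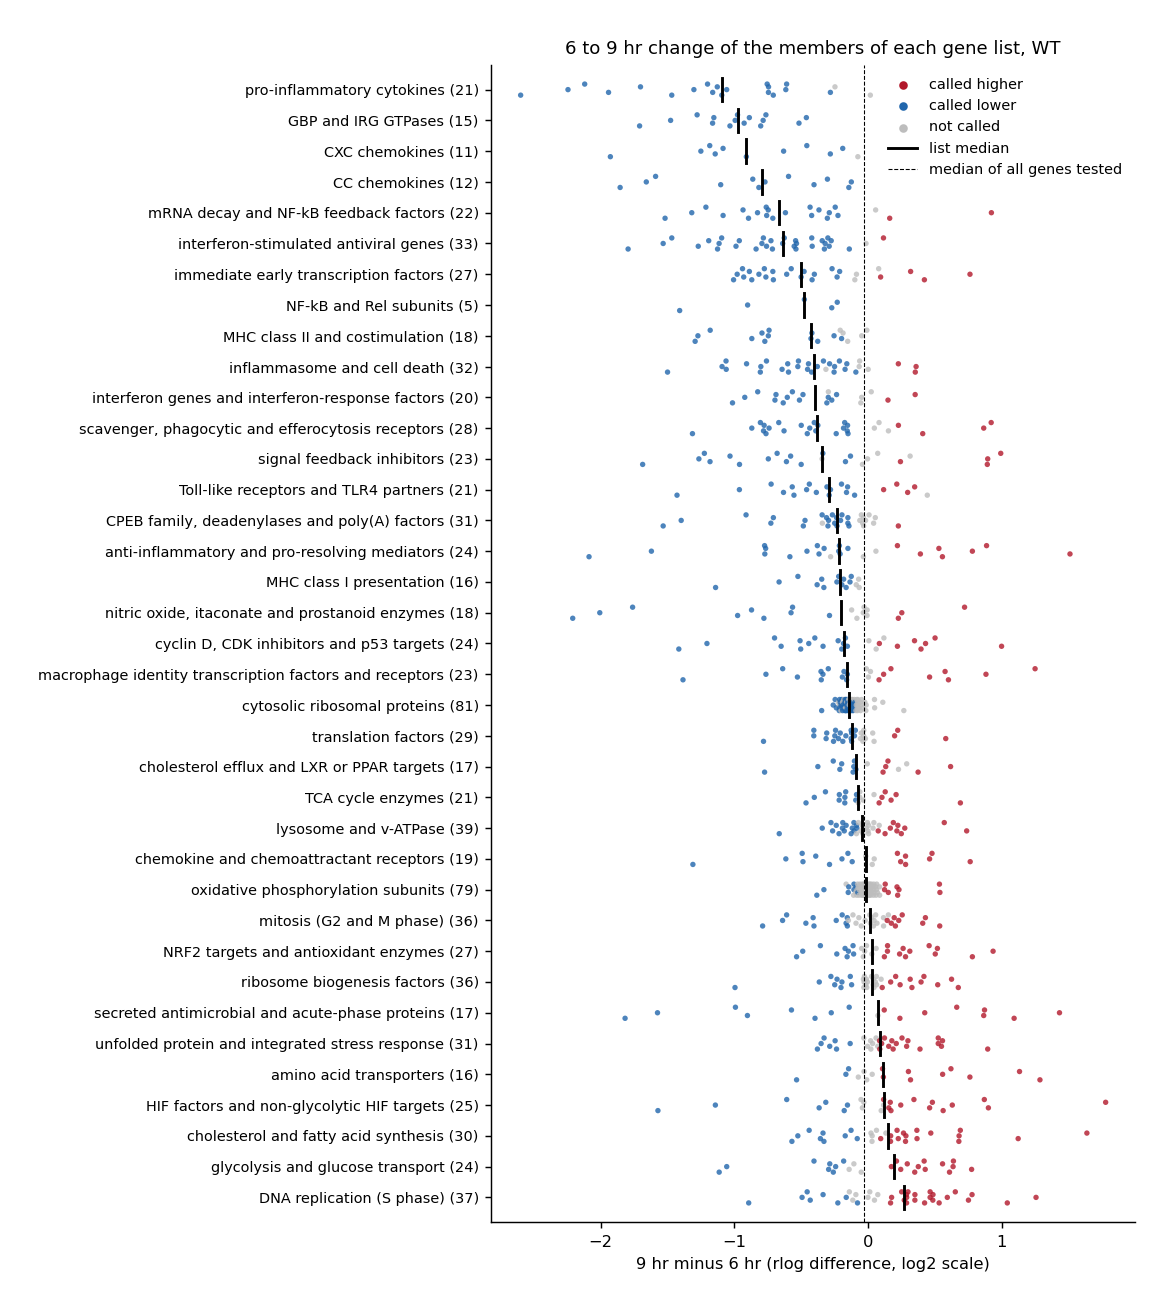
Difference between 9 and 6 hr (rlog, log2 scale) of each tested member of 37 gene lists in WT, with the number tested in brackets, coloured by the limma call. Black bars are list medians, from −1.09 for pro-inflammatory cytokines to 0.27 for DNA replication, and the dashed line is the median of all genes tested, −0.027.

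Effector enzymes and surface proteins held more falls than rises, as did all genes tested (36.2% against 30.1%). Of 18 enzymes that make nitric oxide, itaconate and prostanoids, 9 fell and 3 rose (16.7% of members, median −0.21). *Nos2* (chr11:78920787-78960226), the inducible nitric oxide synthase, read 13.83, 14.28, 13.87 and 14.37 at 6 hr and 11.91, 12.80, 11.88 and 12.73 at 9 hr. It fell by 1.76 ± 0.062 (SE, n = 4 mice, 3.39-fold lower, limma adjusted p = 6.1e-12), and mice 69 and 88 read above mice 25 and 87 at both times. *Ch25h*, which makes an antiviral oxysterol, changed by −2.01 ± 0.051 and *Acod1*, which makes itaconate, by −0.58 ± 0.045. *Ptges*, the prostaglandin E synthase downstream of COX-2, rose by 0.72 ± 0.059. Of 18 MHC class II and costimulation genes 13 fell and 0 rose (median −0.42, or −0.28 under quantile normalization), led by *Vcam1* at −1.29 ± 0.034, *Cd83* at −1.27 ± 0.043 and *Cd40* at −1.18 ± 0.051. Of 16 MHC class I genes 13 fell (median −0.21), with *Nlrc5*, their transactivator, at −1.14 ± 0.030, but under quantile normalization 6 fell, 9 rose and the median was 0.10. Of 32 inflammasome and cell death genes 25 fell and 3 rose (median −0.40), with *Ripk2* at −1.50 ± 0.047, *Aim2* at −1.09 ± 0.043 and *Casp4* at −1.06 ± 0.047. Of 21 Toll-like receptor genes and TLR4 partners 16 fell and 4 rose (median −0.29), with *Tlr3* at −1.43 ± 0.036, *Tlr9* at −0.96 ± 0.063 and *Tlr8* at −0.72 ± 0.059.

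Genes linked to resolution moved in both directions. Of 24 anti-inflammatory and pro-resolving mediators 14 fell and 7 rose (median −0.22), but under quantile normalization 11 fell and 11 rose (median −0.07). Besides *Il10*, the fallers included *Hbegf*, a ligand of the EGF receptor, at −1.62 ± 0.076, and *Il4ra* at −0.77 ± 0.036. The risers included *Arg1*, *Tgfbi* at 0.89 ± 0.041, the haem oxygenase gene *Hmox1* at 0.78 ± 0.052 and *Vegfa* at 0.53 ± 0.080. Of 28 scavenger, phagocytic and efferocytosis receptors 21 fell and 4 rose (median −0.38), but under quantile normalization 15 fell and 12 rose (median −0.11). *Mertk*, the receptor through which macrophages engulf dying cells, read 10.25, 10.57, 10.09 and 10.56 at 6 hr and 9.02, 9.14, 8.89 and 9.16 at 9 hr. It fell by 1.31 ± 0.047 (SE, n = 4 mice, 2.49-fold lower, limma adjusted p = 6.5e-12). *Olr1* changed by −0.87 ± 0.067, and the risers were *Trem1*, *Marco*, *Scarb1* and *Stab1*. Secreted antimicrobial and acute-phase genes were split, 8 up and 8 down of 17 (median 0.07, or 0.22 under quantile normalization), with *Slpi*, *Hp* and *Camp* (0.87 ± 0.15) among the rises and the pentraxin gene *Ptx3* (−1.57 ± 0.064) among the falls. *Camp* and *Hp* are also made by neutrophils. Of 12 neutrophil markers 4 passed the filter, namely *Camp* itself, *S100a8*, *S100a9* and *Ngp*. *Ly6g*, *Mpo* and *Elane* stayed below it. The sum of the 12, which includes *Camp*, ran from 191 to 271 at 6 hr and from 189 to 282 at 9 hr. *S100a8* was the highest of them (7.09 to 7.57 at 6 hr), so the sum says little of the others. The part of neutrophils in the rises of *Camp* and *Hp* was not tested. Of 23 macrophage identity genes 12 fell and 8 rose (median −0.15, or 0.12 under quantile normalization), with *Id3* at −1.38 ± 0.079, *Tmem119* at 1.25 ± 0.12 and *Cebpa* at 0.88 ± 0.054. *Csf1r*, the receptor for M-CSF, differed by 0.02 ± 0.036 and did not pass the test, except after quantile normalization (0.38). Of 19 chemokine and chemoattractant receptors 9 fell and 7 rose (median −0.02, or 0.10 under quantile normalization), from *Ccrl2* at −1.31 ± 0.046 to *S1pr1* at 0.77 ± 0.056.

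In 5 lists for metabolism and stress 52.0% to 56.3% of members rose and 18.8% to 33.3% fell, against 30.1% and 36.2% of all genes tested. These shares depended on the scaling. After median centring the rises and falls were 13 and 10 for glycolysis, 11 and 9 for HIF genes and 14 and 9 for cholesterol and fatty acid synthesis. They were 6 and 3 for amino acid transporters and 12 and 8 for the stress response. Of 24 glycolysis and glucose transport genes 13 rose and 8 fell (median 0.19). The lactate exporter gene *Slc16a3* rose by 0.78 ± 0.078 and *Tpi1* by 0.64 ± 0.049, while the regulatory enzyme *Pfkfb3* changed by −1.11 ± 0.035 and *Pfkp* by −1.06 ± 0.032. Of 25 HIF factors and targets outside glycolysis 13 rose and 7 fell (median 0.12). With *Egln3*, the mitophagy receptor gene *Bnip3* rose by 0.90 ± 0.062 and *Ankrd37* by 0.87 ± 0.12, whereas *Plod2* and *Adm* changed by −1.57 ± 0.085 and −1.14 ± 0.11. *Hif1a* itself read 13.19, 13.10, 13.02 and 13.25 at 6 hr and 12.96, 13.12, 13.07 and 13.29 at 9 hr, which did not pass the test (−0.03 ± 0.042), and gave 0.25 after quantile normalization. Of 30 cholesterol and fatty acid synthesis genes 16 rose and 9 fell (median 0.15). Those that rose included *Dhcr7* at 1.12 ± 0.052 and *Mvk* at 0.69 ± 0.040 besides *Scd2*. Of 16 amino acid transporters 9 rose and 3 fell (median 0.11, or 0.27 under quantile normalization), led by *Slc43a2* at 1.29 ± 0.050 and *Slc36a1* at 1.13 ± 0.049. Of 31 genes of the unfolded protein and integrated stress response 17 rose and 7 fell (median 0.09, or 0.30 under quantile normalization), with *Trib3*, *Sesn2* (0.56 ± 0.082) and *Ddit3* (0.55 ± 0.040) up and the chaperone gene *Hspa5* at −0.33 ± 0.034. NRF2 targets and antioxidant genes gave 12 rises (44.4%) and 9 falls (33.3%) of 27, against 30.1% and 36.2% of all genes tested, with *Osgin1* at 0.94 ± 0.048. Their rises and falls were 11 and 9 after median centring and 19 and 3 under quantile normalization.

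Genes of oxidative phosphorylation and of the ribosome had small differences. Of 79 oxidative phosphorylation genes 8 rose and 8 fell (median −0.01, or 0.09 with 39 rises under quantile normalization). Of 81 cytosolic ribosomal protein genes 45 fell and 0 rose (median −0.14), and no member fell by more than *Rpl10a*, at −0.35 ± 0.064. Many of these genes have processed pseudogenes that can share their reads, and under quantile normalization 19 fell and 13 rose (median −0.07). Translation factors, 18 down and 3 up of 29 (median −0.12), turned to a median of 0.08 under quantile normalization, as did TCA cycle enzymes (10 down and 6 up of 21, −0.07 to 0.01), lysosome and v-ATPase genes (16 down and 10 up of 39, −0.04 to 0.22) and targets of LXR and PPAR (9 down and 5 up of 17, −0.09 to 0.13). Ribosome biogenesis factors gave 11 rises and 9 falls of 36, from *Rrp1b* (0.68 ± 0.075) to *Wdr43* (−0.99 ± 0.043), with a median of 0.03 that turned to −0.02 after median centring. The NRF2 list behaved likewise (0.03 to −0.02).

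Of 37 DNA replication genes 22 rose (59.5%) and 8 fell (21.6%, median 0.27), with *E2f1*, a transcription factor of S phase entry, at 1.26 ± 0.041, *Cdc6*, which licenses origins, at 1.04 ± 0.098 and *Pola1* at −0.89 ± 0.071. Mitosis genes gave 9 rises (25.0%) and 11 falls (30.6%) of 36, near the shares over all genes, with a median of 0.02 that turned to −0.04 and −0.05 under the 2 scalings, with *Cenpe* at −0.79 ± 0.050. Among D cyclins, CDK inhibitors and p53 targets, 14 of 24 fell and 7 rose (median −0.18), with *Ccnd2* at −1.42 ± 0.033, *Cdkn1a*, which encodes the inhibitor p21, at −1.20 ± 0.045 and *Sesn1* at 1.00 ± 0.066. Of 31 CPEB, deadenylase and poly(A) factor genes 20 fell and 1 rose (median −0.23). *Cpeb4* (chr11:31870104-31935635) read 10.42, 10.67, 10.09 and 10.62 at 6 hr and 8.97, 8.94, 8.89 and 9.41 at 9 hr and fell by 1.40 ± 0.068 (SE, n = 4 mice, 2.63-fold lower, limma adjusted p = 1.5e-10). Its means of 7.71, 8.64, 9.76, 10.45 and 9.05 over the 5 times were highest at 6 hr.

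AREs were counted because TTP and other decay factors bind them. For each gene the longest 3′UTR was taken over all its GENCODE vM21 transcripts (mm10) with a stop codon. Transcript types were not separated, so it need not be the 3′UTR of the main transcript. Such a 3′UTR was found for 11866 of the 13015 genes. The heptamer TATTTAT was present in 29.6% of them, in 36.2% of the genes that fell, in 23.6% of those that rose, and in 50.6% and 20.5% of those that fell or rose by at least 1. The pentamer ATTTA, which the heptamer contains, was present in 70%, 78% and 63.8% of all genes, falling genes and rising genes. Length differed too, with medians of 1338, 1605.5 and 1227.5 bases, and of 1620.5 and 1770 bases for genes that fell or rose by at least 1. Per 1000 bases of 3′UTR there were 0.263 heptamers over all genes, 0.453 in genes that fell by at least 1 and 0.148 in genes that rose by at least 1. Of the 15 largest falls, all 15 had ATTTA and 10 had TATTTAT, and of the 15 largest rises 9 and 3 had them. These shares are descriptions without a test. The stretch of 30 bases richest in ATTTA is shown for 4 of the fallers, 5′ to 3′, with ATTTA in capitals:
Tnf, chr17:35199678-35199707, minus strand: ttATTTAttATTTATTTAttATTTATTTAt
Ptgs2, chr1:150105798-150105827, plus strand: ATTTATTTATTTAtgtgaagaATTTAattt
Il12b, chr11:44413473-44413502, plus strand: ATTTAagtaATTTAtgtATTTAttaATTTA
Il1b, chr2:129364802-129364831, minus strand: cttacctATTTATTTAtgtATTTAttgatt
These windows hold 5, 4, 4 and 3 copies, overlapping ones included, and are the richest of those examined. The richest windows of *Il6*, *Fst* and *Il10*, which also fell, held 2, 2 and 1. *Csf2*, which did not pass the test, had 9 TATTTAT in its 3′UTR.

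Promoters from RefSeq (GRCm38.p6, the same assembly as mm10, 250 bases before to 50 after the start) matched 10060 of the 13015 genes, 77.3%. That is too few for shares of motifs to be compared between rising and falling genes, and such a comparison is void here. Matches are shown for 4 of the fallers as a description. The kB consensus, the DNA element of NF-kB, occurred on either strand in 4.51% of all promoters of this length and GAAANNGAA, the core of the interferon-stimulated response element, in 8.56%. *Il6* and *Cxcl10* held the kB consensus and *Ifit1* and *Isg15* held GAAANNGAA, or its reverse complement in the case of *Ifit1*, in capitals 5′ to 3′ on the gene's strand:
Il6, chr5:30013060-30013089, plus strand: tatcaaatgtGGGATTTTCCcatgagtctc
Cxcl10, chr5:92348973-92349002, minus strand: cggtttacagGGGACTTCCCtcgggttgcg
Ifit1, chr19:34640795-34640824, plus strand: cagtctcagtTTCAGTTTCtcactgctgac
Isg15, chr4:156200865-156200894, minus strand: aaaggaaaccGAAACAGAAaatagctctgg
These 4 genes were picked among the fallers, with differences of −2.60, −1.93, −1.13 and −0.42. The kB consensus also occurred in promoters of genes that rose, among them *Slc43a2* (1.29), *Mvk* (0.69) and *Neu1* (0.57).

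The same interval was measured in the *Cpeb4*-/- BMDMs of mice 2, 3, 55 and 62, which share no library with WT. There limma called 6481 of 13028 genes (49.7%), 3059 higher and 3422 lower. Over the 12942 genes in both fits the changes had Pearson's r = 0.89 across genes, which are not independent replicates, and 8063 of 8596 genes called in WT had the same sign in *Cpeb4*-/-. So did all 375 genes with a WT fall of at least 1 and all 171 with a rise of at least 1. *Il6* changed by −2.66 in *Cpeb4*-/- and *Tnf* by −1.27. List medians in *Cpeb4*-/- were −1.09 for pro-inflammatory cytokines (−1.09 in WT), −0.53 for antiviral genes (−0.64 in WT), −0.61 for GBP and IRG genes (−0.98 in WT) and 0.26 for glycolysis (0.19 in WT). In 4 of the 37 lists the medians had opposite signs, with ribosome biogenesis at −0.14 (0.03 in WT), LXR and PPAR targets at 0.13 (−0.09 in WT), macrophage identity at 0.02 (−0.15 in WT) and mitosis at −0.07 (0.02 in WT).

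The difference of the changes was tested as a genotype by time interaction in limma, and 580 of 13021 genes passed (4.45%). In 478 of these the WT change was below the *Cpeb4*-/- change and in 102 above. Both genotypes fell in 318 and both rose in 115. *Siglece*, an inhibitory lectin of myeloid cells, changed by 0.98 ± 0.041 in WT and −0.12 ± 0.081 in *Cpeb4*-/- (difference 1.10 ± 0.084, limma adjusted p of the interaction = 0.00017). *Shisa3* changed by −1.04 ± 0.046 in WT and −2.01 ± 0.071 in *Cpeb4*-/- (difference 0.97 ± 0.091, limma adjusted p of the interaction = 0.00086), and *Slc13a3*, a citrate transporter family member, by 0.64 ± 0.040 in WT and −0.01 ± 0.090 in *Cpeb4*-/- (difference 0.65 ± 0.088, limma adjusted p of the interaction = 0.0044). The other large positive differences were in *Tnfrsf11b*, which encodes osteoprotegerin, at 0.90 and in *Dnd1* at 0.77. The largest negative difference was in *Sectm1a*, which changed by −2.15 ± 0.20 in WT and −0.25 ± 0.19 in *Cpeb4*-/- (difference −1.90 ± 0.32, limma adjusted p of the interaction = 0.011). It was followed by *Atp9a* (−1.36), *Lmln* (−1.19), *Tnfaip8l3* (−1.18) and *Eya4* (−1.14). These 5 genes, with *Tnfrsf11b* and *Dnd1*, had low WT means, from 2.21 to 5.27 at 6 and 9 hr.

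Several genes of the lists were also called. *Arg1* rose in both, by 1.51 ± 0.13 in WT and 2.56 ± 0.10 in *Cpeb4*-/- (difference −1.04 ± 0.18, limma adjusted p of the interaction = 0.011). *Il10* changed by −2.09 ± 0.059 in WT and −1.51 ± 0.058 in *Cpeb4*-/- (difference −0.57 ± 0.096, limma adjusted p of the interaction = 0.011), *Mertk* by −1.31 ± 0.047 in WT and −0.65 ± 0.089 in *Cpeb4*-/- (difference −0.66 ± 0.11, limma adjusted p of the interaction = 0.011) and *Cpeb4* itself by −1.40 ± 0.068 in WT and −0.43 ± 0.19 in *Cpeb4*-/- (difference −0.97 ± 0.23, limma adjusted p of the interaction = 0.037). *Cxcl10* changed by −1.93 ± 0.055 in WT and −1.48 ± 0.048 in *Cpeb4*-/- and *Il1b*, with the larger fall in *Cpeb4*-/-, by −0.74 ± 0.054 in WT and −1.16 ± 0.045 in *Cpeb4*-/-. By list, against 4.45% of all genes tested, the interaction passed in 9 of 33 antiviral genes, 6 of 24 anti-inflammatory mediators, 6 of 36 ribosome biogenesis factors, 5 of 15 GBP and IRG genes and 5 of 20 interferon factors. It passed in 4 of 12 CC chemokines, 4 of 23 macrophage identity genes and 4 of 32 inflammasome and cell death genes, and in 0 to 3 members of each of the other 29 lists. The lists named had the most such members, but not in every case the largest shares. Of the other 29, the CXC chemokines had 2 of 11 and the pro-inflammatory cytokines 3 of 21. Among the CC chemokines, *Ccl3* and *Ccl4* fell further in *Cpeb4*-/- (−1.85 ± 0.064 in WT and −2.29 ± 0.043 in *Cpeb4*-/- for *Ccl3*, −1.59 ± 0.061 in WT and −2.08 ± 0.049 in *Cpeb4*-/- for *Ccl4*), unlike *Cxcl10*. The count rested strongly on single mice and on the fit. It was 1861 without *Cpeb4*-/- mouse 2 and 117 without WT mouse 69. It was 183 and 330 without *Cpeb4*-/- mice 3 and 62, and 216, 220 and 189 without WT mice 25, 87 and 88. Without the replicate block it was 73, without the variance trend 90, and without the filter 16. *Siglece* passed under all 15 alternatives, *Shisa3*, *Slc13a3* and *Arg1* under 14 of 15, *Il10* and *Mertk* under 12, *Il1b* under 11, *Cxcl10* under 10 and *Cpeb4* under 6. Of the genes with low values, *Atp9a* passed under 13 of 14 alternatives, *Sectm1a* and *Eya4* under 12, *Tnfaip8l3* under 8, *Lmln* under 7, and *Tnfrsf11b* and *Dnd1* under 5. No cage held both genotypes and the background was mixed, so cage and genotype cannot be told apart.

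**Figure D4:**
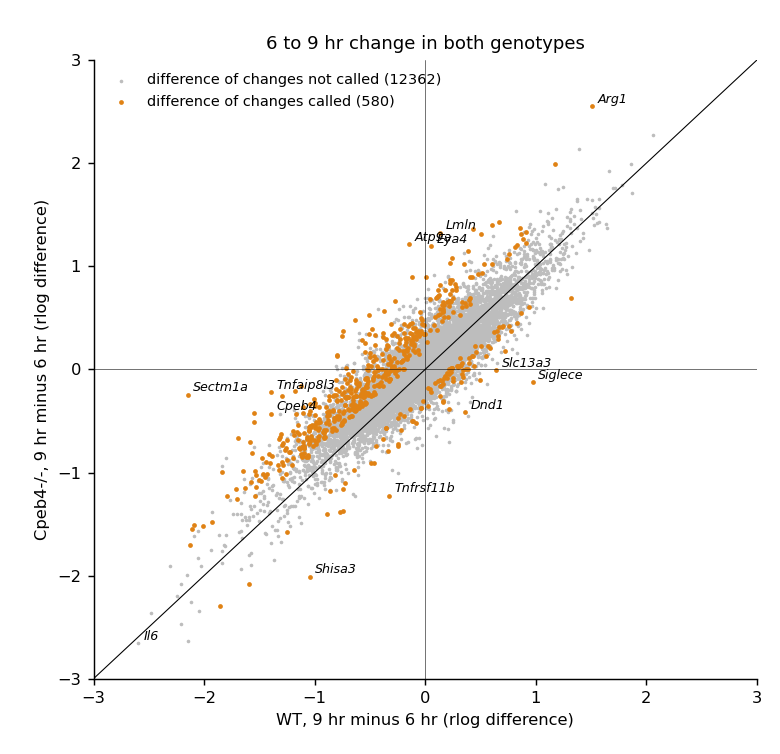
Difference between 9 and 6 hr (rlog) in *Cpeb4*-/- against that in WT for 12942 genes, 4 mice each, with the 580 genes whose changes differed (limma interaction, adjusted p under 0.05) in orange and equality as a diagonal. Most genes lie near the diagonal, and *Siglece* (0.98 against −0.12) and *Arg1* (1.51 against 2.56) stand off it.

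The WT comparison was paired by mouse over 4 pairs. An exact paired permutation test on 4 pairs cannot give a two-sided p under 0.125, so that its adjusted p values rest on the limma model, which shares its estimate of variance across genes. Rlog shrinks differences toward 0, most of all at low counts, so the differences above understate the changes in counts, and the table holds no read totals from which counting error could be given.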

How the data were processed

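Poly(A) RNA of 40 BMDM libraries, 4 WT and 4 *Cpeb4*-/- mice at 5 times of LPS, was sequenced. Per the submitters' processing notes and the methods, reads were aligned to mm10 with STAR 2.3.0e and counted per gene with featureCounts. The authors then made the deposited rlog values, which are on a log2 scale, with DESeq2. The rlog table holds no read totals, so the depth per library is unknown here, and no counting interval is given. All 40 value columns were matched to samples by their titles, and 0 were left unused.

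Genes averaging log2(5) or more over the 8 WT libraries at 6 and 9 hr were fitted in limma 3.58.1 (R 4.3.3) with time and mouse as terms and eBayes with a mean-variance trend, two-sided, with Benjamini-Hochberg adjustment over the 13015 genes and a threshold of 0.05. Libraries were paired because same-numbered ones came from the same mouse. Their deviations from the time means correlated at 0.35, 0.31, 0.45 and 0.34 within mice and at −0.29 to 0.02 between mice. Deviations from a mean sum to 0 over the mice, which by itself pushes the values between mice below 0. Batch lies within mouse. Replicates are mice, and each mouse gave 1 culture per time as far as the labels say. The genotype by time interaction was fitted over the 16 WT and *Cpeb4*-/- libraries in the same way. Classes came from the 0 and 3 hr WT libraries, at an adjusted p under 0.05 and a difference of at least 1. Of the 47 gene lists, 37 were for processes and 10 for cell type markers. The genes, lists and tests were chosen with earlier results of these data known. Genes named were the 15 largest rises and falls with the same sign in all 4 mice (predicted gene models were only counted), the 3 called members of each list with the largest differences, 36 fixed genes, the 5 largest interactions in each direction and the largest changes of flat genes. Further list members were named after their values were seen. Target lists of CPEB4 and TTP were not used. Some list members are not reported here by name. Alternatives were other filters, no trend, robust moderation, no mouse term, all 20 WT libraries, median centring, quantile normalization and leaving out each mouse. Motifs were read from RefSeq promoters and GENCODE vM21 3′UTRs. Scripts used Python 3.11.15 with numpy 2.4.6, pandas 2.3.3 and matplotlib 3.10.9, and the fits were tested on simulated data.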

Additional observations from a re-analysis of the deposited data

Results flagged for a closer look

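In 62 genes examined, the change of 1 of the 4 mice stood apart from the other 3 by Dixon's ratio in 4, and chance alone gives about 1 in 20. *Unc80* changed by −2.58 in mouse 69 against −1.98 to −1.87 in the others. *Scd2* changed by 2.01 in mouse 88 against at most 1.54, and *Trem3* by 0.67 in mouse 25 against 1.76 to 1.82. *Hif1a* changed by −0.23 in mouse 25 against 0.02 to 0.05.

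The change from 6 to 9 hr differed between WT and *Cpeb4*-/- by the limma interaction in 38 of the genes named outside the marker lists. Each is given as the WT change minus the *Cpeb4*-/- change, with the number of alternative fits that kept the call. Among ligands and their binding proteins these were *Il10* at −0.57 (−2.09 in WT and −1.51 in *Cpeb4*-/-, 12 of 15), *Il1b* at 0.42 (−0.74 in WT and −1.16 in *Cpeb4*-/-, 11 of 15), *Cxcl10* at −0.45 (−1.93 in WT and −1.48 in *Cpeb4*-/-, 10 of 15), *Ccl3* at 0.44 (−1.85 in WT and −2.29 in *Cpeb4*-/-, 6 of 15), *Ccl4* at 0.49 (−1.59 in WT and −2.08 in *Cpeb4*-/-, 9 of 15), *Tnfsf4* at −0.42 (−2.13 in WT and −1.71 in *Cpeb4*-/-, 11 of 15), *Tnfrsf11b* at 0.90 (−0.33 in WT and −1.23 in *Cpeb4*-/-, 5 of 14) and *Pdgfc* at −0.59 (−1.41 in WT and −0.82 in *Cpeb4*-/-, 2 of 15). Among receptors and surface proteins these were *Mertk* at −0.66 (−1.31 in WT and −0.65 in *Cpeb4*-/-, 12 of 15), *Csf1r* at −0.25 (0.02 in WT and 0.27 in *Cpeb4*-/-, 4 of 15), *Olr1* at −0.57 (−0.87 in WT and −0.30 in *Cpeb4*-/-, 5 of 15), *Tlr3* at −0.42 (−1.43 in WT and −1.01 in *Cpeb4*-/-, 7 of 15), *Tlr9* at −0.60 (−0.96 in WT and −0.36 in *Cpeb4*-/-, 8 of 15), *Siglece* at 1.10 (0.98 in WT and −0.12 in *Cpeb4*-/-, 15 of 15), *Shisa3* at 0.97 (−1.04 in WT and −2.01 in *Cpeb4*-/-, 14 of 15) and *Sectm1a* at −1.90 (−2.15 in WT and −0.25 in *Cpeb4*-/-, 12 of 14). Among antiviral and cell death genes these were *Cmpk2* at −0.57 (−1.80 in WT and −1.23 in *Cpeb4*-/-, 13 of 15), *Rsad2* at −0.39 (−1.53 in WT and −1.14 in *Cpeb4*-/-, 13 of 15), *Ifit1* at −0.31 (−1.13 in WT and −0.82 in *Cpeb4*-/-, 8 of 15), *Iigp1* at −0.55 (−1.71 in WT and −1.16 in *Cpeb4*-/-, 12 of 15), *Aim2* at −0.35 (−1.09 in WT and −0.74 in *Cpeb4*-/-, 9 of 15) and *Ripk2* at −0.43 (−1.50 in WT and −1.07 in *Cpeb4*-/-, 9 of 15). Among enzymes and transporters these were *Arg1* at −1.04 (1.51 in WT and 2.56 in *Cpeb4*-/-, 14 of 15), *Ch25h* at −0.49 (−2.01 in WT and −1.52 in *Cpeb4*-/-, 8 of 15), *Hmox1* at 0.41 (0.78 in WT and 0.37 in *Cpeb4*-/-, 9 of 15), *Pfkp* at −0.21 (−1.06 in WT and −0.85 in *Cpeb4*-/-, 5 of 15), *Slc13a3* at 0.65 (0.64 in WT and −0.01 in *Cpeb4*-/-, 14 of 15), *Atp9a* at −1.36 (−0.15 in WT and 1.21 in *Cpeb4*-/-, 13 of 14) and *Lmln* at −1.19 (0.14 in WT and 1.33 in *Cpeb4*-/-, 7 of 14). Among transcription factors and RNA-binding proteins these were *Klf8* at −0.55 (−2.11 in WT and −1.55 in *Cpeb4*-/-, 5 of 15), *Fos* at −0.38 (−0.09 in WT and 0.29 in *Cpeb4*-/-, 12 of 15), *Eya4* at −1.14 (0.05 in WT and 1.20 in *Cpeb4*-/-, 12 of 14), *Cpeb3* at −0.50 (−1.53 in WT and −1.03 in *Cpeb4*-/-, 8 of 15), *Cpeb4* at −0.97 (−1.40 in WT and −0.43 in *Cpeb4*-/-, 6 of 15) and *Dnd1* at 0.77 (0.36 in WT and −0.41 in *Cpeb4*-/-, 5 of 14). The last group was *Osgin1* at 0.33 (0.94 in WT and 0.61 in *Cpeb4*-/-, 8 of 15), *Asap3* at −1.13 (−1.55 in WT and −0.42 in *Cpeb4*-/-, 13 of 14) and *Tnfaip8l3* at −1.18 (−1.40 in WT and −0.22 in *Cpeb4*-/-, 8 of 14).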

How the results depend on the processing

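The count of genes changed from 6 to 9 hr in WT stayed within 1.5 times its value of 8619 under the 12 alternatives run, from 7504 with all 20 WT libraries in 1 fit to 9402 without the filter, and from 7801 to 8371 without each mouse. Without the replicate block that pairs libraries by mouse it was 7717 (3494 higher and 4223 lower). Median centring gave 3256 higher and 5399 lower genes, quantile normalization 4699 and 3932, and the filter-free fit 3543 and 5859. Of the genes called both with the deposited and with the quantile-normalized values, 234 had opposite signs, and after median centring 0 did. The count of genes whose change differed between genotypes was far less stable. It was 580 as reported, 90 without the variance trend, 16 without the filter, 73 without the replicate block, 403 after quantile normalization, and 117 to 1861 without each mouse, and the cause was not tested. The median change of induced genes was −0.66 at a class limit of 1, −0.46 at 0.5 and −0.91 at 2, and −0.59 after quantile normalization. That of repressed genes was 0.54 at a limit of 1, 0.34 at 0.5 and 0.82 at 2, and 0.60 at a filter of 5. Over 185 named genes, 2160 of 2193 alternative values kept their direction and their side of the threshold, 24 lost the call and 6 gained it, and quantile normalization turned 3 genes, *Il1rn* to 0.081, *Ccl5* to 0.18 and *Hif1a* to 0.25. Of 539 alternative list medians, 60 moved by more than the SD between mice. Rlog shrinks low genes most and the table holds no read totals, so a change of a low gene is least certain.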
